A study of Mus musculus with 18 samples.

Results

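*Enpp1*, *Ank* and *Xpr1*, 3 of the 38243 genes counted in each library, encode proteins that set how much pyrophosphate and phosphate leaves a cell or is made outside it. They were taken by name and were chosen by their counts in mandibular bone, which earlier results from the same data had shown to be higher in *Fgfr2+/S252W* embryos than in *Fgfr2+/+* littermates. The values of that bone comparison are therefore given below as a description without a test, and so is every comparison that contains it. The tests of the 3 genes are kept for Meckel's cartilage (MC), for mandibular condylar cartilage (MCC), for the difference between these cartilages and for differences between bone and a cartilage averaged over the genotypes, a contrast orthogonal to the difference between genotypes that chose the genes. Other genes are also tested between the genotypes in bone.

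The study collected mandibular bone, MC and MCC by laser capture microdissection of frozen coronal sections from 6 female embryos at E16.5, labeled C57BL/6 and of a line kept on C57BL6/J. Of these, 3 carried the Apert syndrome substitution S252W in 1 allele of *Fgfr2*, as a knock-in point mutation, and 3 were *Fgfr2+/+* littermates labeled WT. No embryos were pooled, and each embryo gave 1 library of each tissue, so that there were 18 libraries in 6 groups of 3. That the 3 libraries of an embryo belong together was inferred from the sample codes. The p-values of the limma fit of all 6 groups rest on 3 embryos per genotype and on 1 spread per gene over all 18 libraries. That fit treats the libraries as independent, so tissues of the same embryos are compared without pairing. The permutation p-values below are taken over the 6 libraries of a cartilage, with both genotypes together.

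Hydroxyapatite grows from calcium and inorganic phosphate, and inorganic pyrophosphate (PPi) binds its surface and stops that growth. ENPP1 is a membrane ectoenzyme that cleaves extracellular ATP to AMP and PPi. ANK is a multipass membrane protein that lets ATP, citrate and PPi reach the extracellular space. XPR1 is the phosphate exporter of animal cells and is gated by inositol pyrophosphates. The tissue-nonspecific alkaline phosphatase, encoded by *Alpl*, removes PPi by hydrolysis, and loss of *Enpp1* or *Ank* in mice is known to cause mineral deposits in soft tissues and joints.

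In the annotation used for counting (GRCm38, the assembly also called mm10), *Enpp1* (ENSMUSG00000037370) lies on the minus strand of chromosome 10 from 24637914 to 24712158, with 25 exon blocks and 6780 exonic bases. *Ank* (ENSMUSG00000022265) lies on the plus strand of chromosome 15 from 27466677 to 27594909, with 12 exon blocks and 3498 exonic bases. *Xpr1* (ENSMUSG00000026469) lies on the minus strand of chromosome 1 from 155275701 to 155417415, with 15 exon blocks and 8123 exonic bases. The counting ignored strand, but no other gene shares an exonic base with any of the 3. *Gm22569* lies within the span of *Xpr1* and *Mir7117* within that of *Ank*, and neither exceeded 3 fragments in a library. The nearest genes on either side of *Enpp1* are *Ccn2*, at 39230 bases, and its family member *Enpp3*, at 61655 bases.

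The 250 bases before the RefSeq start of each gene are shown because the 3 transcripts were high together in bone. All 3 were found in RefSeq (GRCm38.p6), whose starts of *Enpp1* and *Xpr1* differ from those of the annotation used for counting, and each is printed 5′ to 3′ on the strand of its gene, with *Enpp1* from chr10:24712160-24712409, *Ank* from chr15:27466427-27466676 and *Xpr1* from chr1:155417445-155417694. Capitals mark matches, on either strand, to the TATA box (TATAAA), the CCAAT box (CCAAT), the GC box (GGGCGG), a RUNX core (TGTGGT), the AP-1 motif (TGANTCA), the core of the cAMP response element (TGACG) or an E-box (CACGTG).
Enpp1: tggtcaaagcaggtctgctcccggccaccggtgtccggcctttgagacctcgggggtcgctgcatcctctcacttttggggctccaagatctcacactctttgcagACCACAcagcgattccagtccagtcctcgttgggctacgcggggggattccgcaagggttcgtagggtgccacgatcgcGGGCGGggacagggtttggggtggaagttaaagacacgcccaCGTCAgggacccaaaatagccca
Ank: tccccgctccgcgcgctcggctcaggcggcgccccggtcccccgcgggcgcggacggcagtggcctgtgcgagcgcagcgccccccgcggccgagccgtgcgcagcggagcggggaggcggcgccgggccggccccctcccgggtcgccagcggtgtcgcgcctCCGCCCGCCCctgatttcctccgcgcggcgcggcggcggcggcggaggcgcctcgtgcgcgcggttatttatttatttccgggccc
Xpr1: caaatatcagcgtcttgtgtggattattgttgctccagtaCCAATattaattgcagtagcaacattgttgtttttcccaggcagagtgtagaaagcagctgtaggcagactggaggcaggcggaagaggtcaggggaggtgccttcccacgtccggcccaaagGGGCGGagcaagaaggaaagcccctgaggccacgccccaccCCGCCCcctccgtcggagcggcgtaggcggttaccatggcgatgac
The GC box was the motif present in all 3, with 1 match in *Enpp1*, 2 overlapping matches in *Ank* and 2 in *Xpr1*, and 32.74% of 32851 promoters of this length hold at least 1. *Enpp1* also held 1 RUNX core, found in 14.05% of all promoters, and 1 core of the cAMP response element, found in 17.77%. *Xpr1* held 1 CCAAT box, found in 33.85%. No match to TATAAA, which is in 12.37% of promoters, to TGANTCA, in 6.75%, or to CACGTG, in 6.02%, was present in these windows. The GC content was 61.2% for *Enpp1*, 81.2% for *Ank* and 57.6% for *Xpr1*, against a median of 52.4% over all promoters. The matches are strings of letters, and no binding was measured.

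The libraries held 8218548 to 15585778 counted fragments (median 10581032). Mitochondrial genes took 19.4% to 38.1% of them, and in bone their share was 35.95% and 34.8% in *Fgfr2+/+* replicates 1 and 2 but 20.4% in replicate 3, against 23.4% to 23.6% in *Fgfr2+/S252W* bone. The predicted gene *Gm42418* took 24.1% to 39.4% of fragments in MC, 10.9% to 20.2% in MCC and, without overlap of the genotypes, 8.57% to 9.33% in *Fgfr2+/+* and 5.59% to 6.49% in *Fgfr2+/S252W* bone, and with *Gm42418* and the mitochondrial genes left out of the fit the log2 genotype effects in bone were 1.85 for *Enpp1*, 1.35 for *Ank* and 0.78 for *Xpr1*. Because the allele differs by 1 substitution, the level of *Fgfr2* does not check the labels, and in bone it was 224 ± 46.8 normalized counts in *Fgfr2+/+* and 218 ± 13.97 in *Fgfr2+/S252W* embryos (SD, n = 3). Normalized counts are CPM after scaling of the library sizes by TMM factors. The summed level of 9 chondrocyte markers was 32914 to 42941 normalized counts in MCC, 369 to 8784 in MC and 91.6 to 391 in bone, and *Ihh* was at 0 in every MC library. The *Fgfr2+/+* MC replicate 1 stood apart. Its *Col2a1*, the main cartilage collagen, was 212 normalized counts against 2473 and 2497 in the other *Fgfr2+/+* MC libraries, while its *Ibsp*, which encodes bone sialoprotein, was 230.1 against 7.27 and 4.50. The markers of this library go against its label, and the fits of MC are therefore given with and without it where they concern the 3 genes or where its absence changes a call or a value by much.

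All 3 genes were highest in *Fgfr2+/S252W* bone. In dissected tissue, fewer cells of a type and less RNA per cell cannot be told apart. *Enpp1* had 87.2, 103 and 146 normalized counts in *Fgfr2+/+* bone and 387, 443 and 354 in *Fgfr2+/S252W* bone. In MC it had 6.78, 55.5 and 58.3 in *Fgfr2+/+* and 77.5, 19.4 and 22.6 in *Fgfr2+/S252W* embryos. In MCC it had 50.6, 42.0 and 51.6 in *Fgfr2+/+* and 89.5, 86.0 and 174 in *Fgfr2+/S252W* embryos. Each bone library was thus above each *Fgfr2+/+* MCC library and above each MC library, while *Fgfr2+/S252W* MCC reached into the range of *Fgfr2+/+* bone. The order of the group means was *Fgfr2+/S252W* bone, *Fgfr2+/S252W* MCC, *Fgfr2+/+* bone, *Fgfr2+/+* MCC, *Fgfr2+/+* MC and *Fgfr2+/S252W* MC. In that order *Fgfr2+/S252W* MCC overlapped *Fgfr2+/+* bone, and the last 3 groups overlapped their neighbors. The lowest value, in *Fgfr2+/+* MC replicate 1, rests on 73 fragments, and the highest on 10005.

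*Ank* separated bone from both cartilages. It had 58.8, 72.6 and 85.2 normalized counts in *Fgfr2+/+* bone and 194.1, 194.4 and 156 in *Fgfr2+/S252W* bone. In MC it had 13.8, 24.1 and 19.3 in *Fgfr2+/+* and 27.7, 19.4 and 21.9 in *Fgfr2+/S252W* embryos. In MCC it had 17.5, 11.2 and 16.5 in *Fgfr2+/+* and 18.8, 22.4 and 29.8 in *Fgfr2+/S252W* embryos. The highest cartilage library, at 29.8, was below the lowest bone library, at 58.8, and the 4 cartilage groups overlapped their neighbors in the order of means, which ran from *Fgfr2+/S252W* MCC through *Fgfr2+/S252W* MC and *Fgfr2+/+* MC to *Fgfr2+/+* MCC. The levels rest on 86 to 4386 fragments.

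*Xpr1* fell into more steps than the other two. It had 143.0, 161 and 173 normalized counts in *Fgfr2+/+* bone and 289, 265 and 258 in *Fgfr2+/S252W* bone. In MC it had 93.1, 68.5 and 75.9 in *Fgfr2+/+* and 47.6, 54.0 and 57.4 in *Fgfr2+/S252W* embryos. In MCC it had 41.9, 34.9 and 52.6 in *Fgfr2+/+* and 44.3, 46.8 and 57.8 in *Fgfr2+/S252W* embryos. *Fgfr2+/S252W* bone, *Fgfr2+/+* bone and *Fgfr2+/+* MC followed each other without overlap, and the remaining 3 groups overlapped. Per kilobase of exon, the scale on which genes can be compared, the mean level in *Fgfr2+/+* bone was 20.6 ± 3.77 normalized counts for *Ank*, 19.6 ± 1.88 for *Xpr1* and 16.5 ± 4.47 for *Enpp1* (SD, n = 3). In *Fgfr2+/S252W* bone the order was different, with 58.2 ± 6.68 for *Enpp1*, 51.9 ± 6.31 for *Ank* and 33.3 ± 2.00 for *Xpr1* (SD, n = 3).

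**Figure D1:**
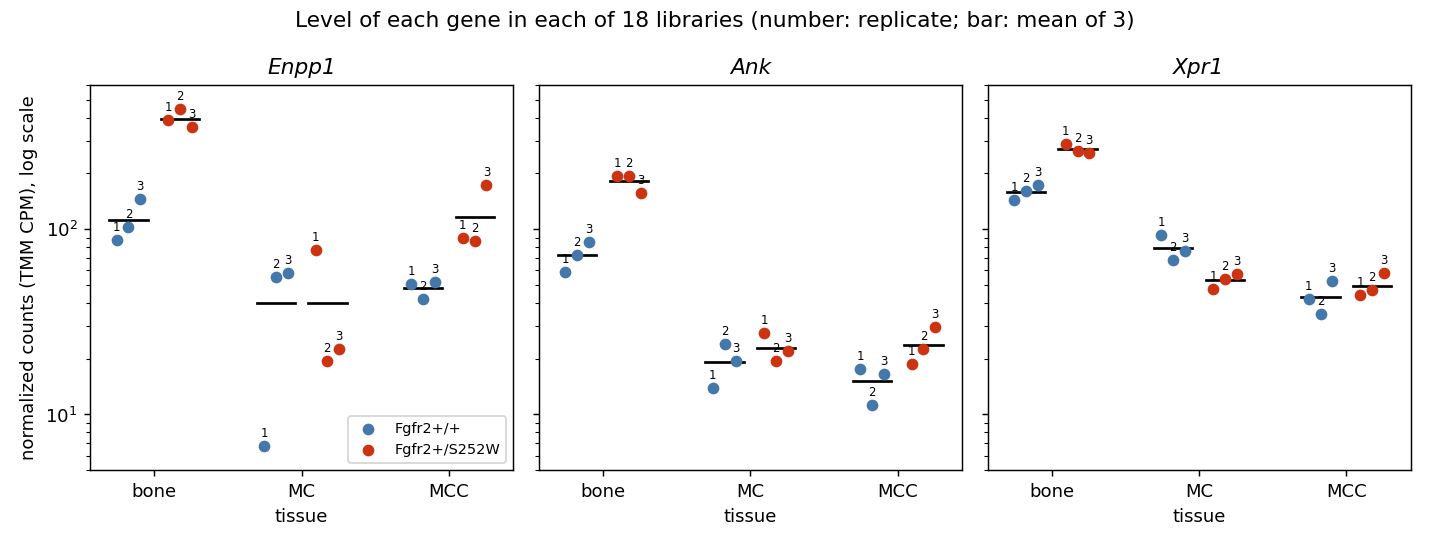
Normalized counts of *Enpp1*, *Ank* and *Xpr1* (vertical log axis) in each of the 18 libraries by tissue, with *Fgfr2+/+* in blue, *Fgfr2+/S252W* in red, the replicate number above each point and a bar at the mean of 3. In each panel the 3 *Fgfr2+/S252W* bone libraries lie above all others, and *Enpp1* in *Fgfr2+/+* MC replicate 1 is the lowest point at 6.78.

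Averaged over the genotypes, each of the 3 genes was higher in bone than in either cartilage. Between bone and MC the log2 difference was 2.88 for *Enpp1* (SE 0.38, limma adjusted p = 3.75e-06), 2.48 for *Ank* (SE 0.17, adjusted p = 1.28e-09) and 1.68 for *Xpr1* (SE 0.12, adjusted p = 1.54e-09). In this comparison 26.6% of the 11469 genes tested were called higher in bone and 24.5% lower. Between bone and MCC the difference was 1.53 for *Enpp1* (SE 0.31, adjusted p = 0.000331), 2.63 for *Ank* (SE 0.16, adjusted p = 3.45e-11) and 2.19 for *Xpr1* (SE 0.11, adjusted p = 5.95e-12), where 25.2% of genes were called higher and 23.6% lower. A call between these tissues was thus common. Without *Fgfr2+/+* MC replicate 1 the difference between bone and MC was 2.24 for *Enpp1*, 2.35 for *Ank* and 1.76 for *Xpr1*, and all 3 stayed past the threshold.

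The 2 cartilages differed in *Enpp1* and *Xpr1*, in opposite directions. *Enpp1* was higher in MCC than in MC, with a log2 difference of 1.35 (SE 0.40, limma adjusted p = 0.00674), and 28.4% of genes were called higher in MCC. Without *Fgfr2+/+* MC replicate 1 this difference was 0.72 (adjusted p = 0.0280), and by edgeR and DESeq2 it was 0.90 and did not pass (adjusted p = 0.0520 and 0.0779). *Xpr1* was lower in MCC, with a difference of -0.51 (SE 0.13, adjusted p = 0.00230), and 27.8% of genes were called lower. Without that MC library the *Xpr1* difference was -0.41 (adjusted p = 0.0110). *Ank* differed by -0.15 (95% interval -0.56 to 0.26, adjusted p = 0.544). Within *Fgfr2+/+* embryos alone *Xpr1* differed between MCC and MC by -0.91 (SE 0.18, adjusted p = 0.000337), where 22.1% of genes were called lower, and by -0.73 without that MC library (adjusted p = 0.00442). Within *Fgfr2+/S252W* embryos it differed by -0.11 (95% interval -0.51 to 0.29, adjusted p = 0.674). The *Enpp1* difference within *Fgfr2+/+* embryos turned from 1.06 (adjusted p = 0.140) to -0.21 without that library (adjusted p = 0.694), and within *Fgfr2+/S252W* embryos it was 1.63 (SE 0.55, adjusted p = 0.0217), where 21.3% of genes were called higher.

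In bone, each of the 3 genes had all 3 *Fgfr2+/S252W* libraries above all 3 *Fgfr2+/+* libraries. The log2 fold change was 1.84 for *Enpp1* (SE 0.41), 1.34 for *Ank* (SE 0.18) and 0.77 for *Xpr1* (SE 0.14), which are folds of 3.58, 2.52 and 1.70. These values chose the genes and are not tested. The same separation was found in 10.7% of all genes tested, and 0.0872% of genes passed the adjusted threshold in this comparison, 0.0349% as higher. Among the *Fgfr2+/+* bone libraries all 3 genes were lowest in replicate 1 and highest in replicate 3. Without 1 bone library at a time the log2 fold changes were 1.67 to 2.05 for *Enpp1*, 1.20 to 1.47 for *Ank* and 0.69 to 0.83 for *Xpr1*. Each highest value was the one without *Fgfr2+/+* replicate 3. The mitochondrial share of that library stood apart from replicates 1 and 2 and was nearer to that of *Fgfr2+/S252W* bone.

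Levels of markers of other cell types differed between the genotypes in the same bone libraries. In the limma fit of all 6 groups 1 of these markers passed, *Lyz2* of the macrophage list, as lower, where 0.0872% of all genes passed. In that fit 0 of 8 osteoclast markers and 0 of 5 red blood cell markers tested passed. The summed level of 12 osteoclast markers was 1145 to 1485 normalized counts in *Fgfr2+/+* bone and 2132 to 2921 in *Fgfr2+/S252W* bone, none of them was at 0, and each of the 12 was above without overlap (10.7% of all genes tested). *Ctsk*, the matrix-degrading protease of osteoclasts, had 392.2, 472.9 and 392 against 773, 730 and 583. The 6 red blood cell markers were all below without overlap (9.7% of all genes tested), with sums of 1257 to 1507 in *Fgfr2+/+* and 315 to 597 in *Fgfr2+/S252W* bone. The 7 macrophage markers summed to 58.1 to 69.7 and 18.7 to 33.0, with 6 of them below and *Cd163* above. The 7 skeletal muscle markers summed to 130 to 742 and 56.7 to 131, of which 3 were below without overlap. The 8 osteoblast markers overlapped in sum, with 13985 to 32297 in *Fgfr2+/+* and 25094 to 25746 in *Fgfr2+/S252W* bone, while 3 of them (*Bglap*, *Bglap2* and *Dmp1*) were above without overlap and *Ibsp* was below. The 9 chondrocyte markers summed to 91.6 to 242 in *Fgfr2+/+* and 291 to 391 in *Fgfr2+/S252W* bone, with *Col2a1* and *Sox9* above without overlap and *Acan* below. Of the 5 endothelial markers 1, *Emcn*, was below without overlap. The part of these cell types in the levels of *Enpp1*, *Ank* and *Xpr1* was not tested.

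In MCC, whose libraries played no part in choosing the genes, *Enpp1* and *Ank* were above in *Fgfr2+/S252W* embryos without overlap, and neither passed the adjusted threshold. The 3 *Fgfr2+/S252W* libraries of *Enpp1* started at 86.0 normalized counts and the *Fgfr2+/+* libraries ended at 51.6. Its log2 fold change was 1.17 (SE 0.47, 95% interval 0.20 to 2.14, limma unadjusted p = 0.0204, adjusted p = 0.998). The libraries of *Ank* were closer, from 18.8 in *Fgfr2+/S252W* and up to 17.5 in *Fgfr2+/+* embryos, with a log2 fold change of 0.61 (SE 0.26, 95% interval 0.07 to 1.15, unadjusted p = 0.0285, adjusted p = 0.998). Mutant libraries lay above without overlap in 4.59% of all genes tested. *Xpr1* overlapped, with a log2 fold change of 0.20 (SE 0.18, 95% interval -0.17 to 0.57, adjusted p = 0.998). In this tissue limma called 0 of 11469 genes, with 351 at an unadjusted p below 0.05, edgeR called 0 and DESeq2 called 3.

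One MCC library had higher sums of osteoblast and osteoclast markers than the rest. *Fgfr2+/S252W* MCC replicate 3, the highest for all 3 genes in its group, had a summed osteoblast marker level of 18704 normalized counts, against 5618 and 5676 in the other 2. The *Fgfr2+/+* MCC libraries ranged from 4934 to 12016, with replicate 3 again the highest. *Alpl* was 621 normalized counts in *Fgfr2+/S252W* replicate 3, against 142 and 175 in its group and 178 to 446 in *Fgfr2+/+* MCC. The osteoclast marker sum of that library was 157, against 83.2 and 88.4 in its group and 93.3 to 138 in *Fgfr2+/+* MCC. Other markers that are high in bone were not highest in it. Its endothelial and red blood cell marker sums were 20.3 and 119, against 23.6 and 223 in *Fgfr2+/+* MCC replicate 3. *Dmp1* reached 34.0 normalized counts in *Fgfr2+/S252W* MCC and 35.8 in *Fgfr2+/+* MCC. Without *Fgfr2+/S252W* replicate 3 the log2 fold change in MCC was 0.87 for *Enpp1*, 0.46 for *Ank* and 0.10 for *Xpr1*. The share of bone in the MCC libraries was not tested as a source of these differences.

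In MC, *Xpr1* was lower in *Fgfr2+/S252W* embryos without overlap, the opposite direction to bone. The *Fgfr2+/S252W* libraries reached 57.4 normalized counts and the *Fgfr2+/+* libraries started at 68.5. The log2 fold change was -0.60 (SE 0.19, 95% interval -0.998 to -0.204, limma unadjusted p = 0.00498) and did not pass after adjustment (adjusted p = 0.167). *Fgfr2+/S252W* libraries lay below without overlap in 6.67% of all genes tested. Without *Fgfr2+/+* replicate 1, which held the highest *Xpr1* of the MC libraries, the log2 fold change was -0.44 (adjusted p = 0.360). The osteoclast marker sum of MC was 231, 234 and, in replicate 1, 391 normalized counts in *Fgfr2+/+* and 174 to 196 in *Fgfr2+/S252W* embryos. *Calcr* was at 0 in the *Fgfr2+/+* MC libraries, and 3 of the 12 markers, *Acp5*, *Mmp9* and *Dcstamp*, were below without overlap. The macrophage marker sum ran the other way, with 14.4 to 55.9 in *Fgfr2+/+* and 76.0 to 99.1 in *Fgfr2+/S252W* MC. Their part in the *Xpr1* level was not tested.

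*Enpp1* and *Ank* gave no separation in MC. The *Enpp1* log2 fold change was 0.60 (SE 0.64, 95% interval -0.74 to 1.94, limma adjusted p = 0.692). It was -0.70 without *Fgfr2+/+* replicate 1 and -0.12 without *Fgfr2+/S252W* replicate 1, so its direction rested on single libraries. *Fgfr2+/S252W* replicate 1, the MC library with the most *Enpp1*, also had the highest chondrocyte marker sum in MC, 8784 normalized counts. *Ank* had a log2 fold change of 0.38 (SE 0.30, 95% interval -0.24 to 1.01, adjusted p = 0.562), and 0.12 without *Fgfr2+/+* replicate 1. In MC limma called 0 of 11469 genes with 1761 at an unadjusted p below 0.05, while edgeR called 90 and DESeq2 423.

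The difference of the genotype effect between MCC and MC, which uses no bone library, was tested directly. It was 0.80 on the log2 scale for *Xpr1* (SE 0.26, 95% interval 0.26 to 1.35, limma unadjusted p = 0.00604, adjusted p = 0.333). It was 0.57 for *Enpp1* (95% interval -1.08 to 2.23, adjusted p = 0.848) and 0.22 for *Ank* (95% interval -0.60 to 1.05, adjusted p = 0.884). None of the 3 passed, and limma called 0 genes in all, with 1091 at an unadjusted p below 0.05, edgeR 0 and DESeq2 93. For *Enpp1* the value without *Fgfr2+/+* MC replicate 1 was 1.87 (adjusted p = 0.308), and it was 0.0246 without *Fgfr2+/+* MC replicate 3. For *Ank* it was 0.489 without *Fgfr2+/+* MC replicate 1 and 0.0244 without *Fgfr2+/+* MCC replicate 2, so that single libraries set the size of both. For *Xpr1* it was 0.64 without *Fgfr2+/+* MC replicate 1 (adjusted p = 0.474).

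**Figure D2:**
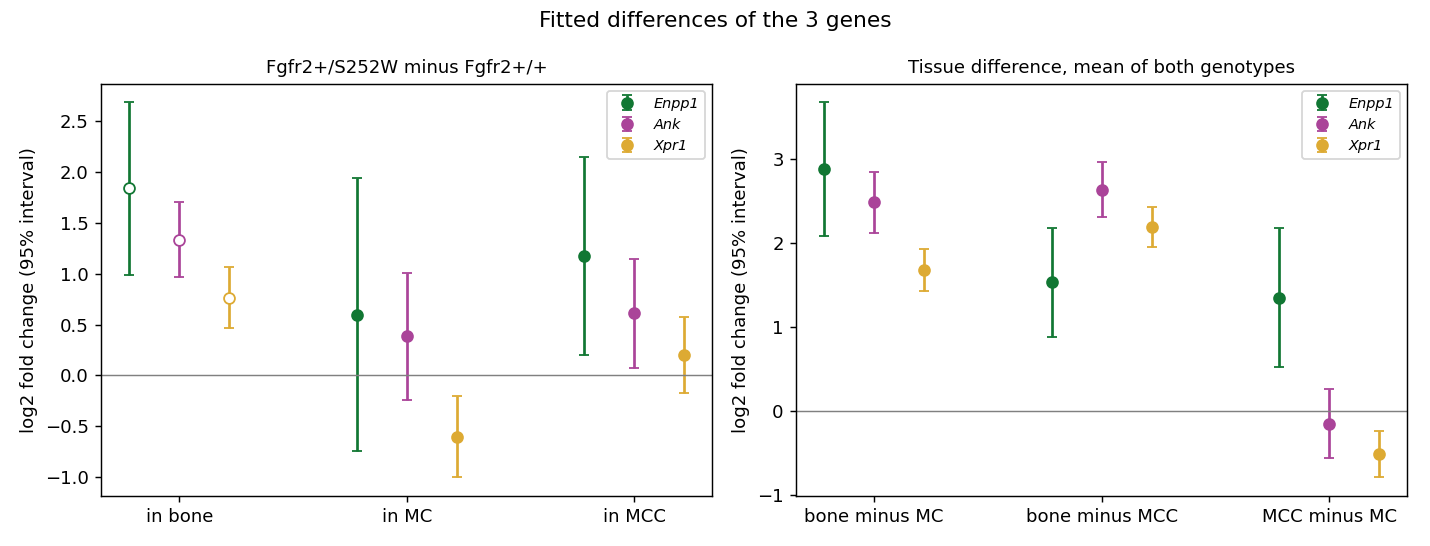
Fitted log2 fold changes with 95% intervals for *Enpp1* (green), *Ank* (purple) and *Xpr1* (yellow), with the genotype effect in each tissue on the left and the tissue differences averaged over genotypes on the right. Open circles mark the bone genotype effect, which chose the genes and has no test. *Xpr1* lies below 0 in MC at -0.60 and above 0 in bone at 0.77, and in MCC the intervals of *Enpp1* and *Ank* start at 0.20 and 0.07 before any adjustment over genes.

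The levels of *Xpr1* followed those of osteoclast genes, and less closely those of endothelial genes, across the 18 libraries. By Pearson correlation of log2 normalized counts, the 5 genes most like *Xpr1* among 11468 were *Ctsk* (r = 0.979), *Capg* (0.974), *Pros1* (0.973), *Atp6v1b2* (0.972) and *Acp5* (0.968). *Acp5* encodes the tartrate-resistant acid phosphatase of osteoclasts and *Atp6v1b2* a subunit of the proton pump that acidifies the resorption pit and lysosomes. Of the 12 osteoclast markers 8 were kept by the filter, and all 8 were among the 500 genes most like *Xpr1*, with a median order of 61. For *Ank* all 8 were also among the first 500, with a median order of 164, and for *Enpp1* 2 were, with a median order of 1308. The 4 endothelial markers that were kept met the same limit, with a median order of 220 for *Xpr1* and 275 for *Ank*, and for *Enpp1* none did, with a median order of 2490. Of the 8 osteoblast markers 6 were kept, and 1 met the limit for *Xpr1*, 1 for *Ank* and 2 for *Enpp1*. Their median orders were 1910, 1622 and 1286. These points share tissue and genotype, which many genes high in bone follow too. In the cartilages the osteoclast marker sum was 83.2 to 391 normalized counts, and the *Xpr1* level in the library with the highest sum, *Fgfr2+/+* MC replicate 1, was the highest of the 12. The markers of that library go against its label. Among the other cartilage libraries the order of *Xpr1* did not follow that of the sum throughout.

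**Figure D3:**
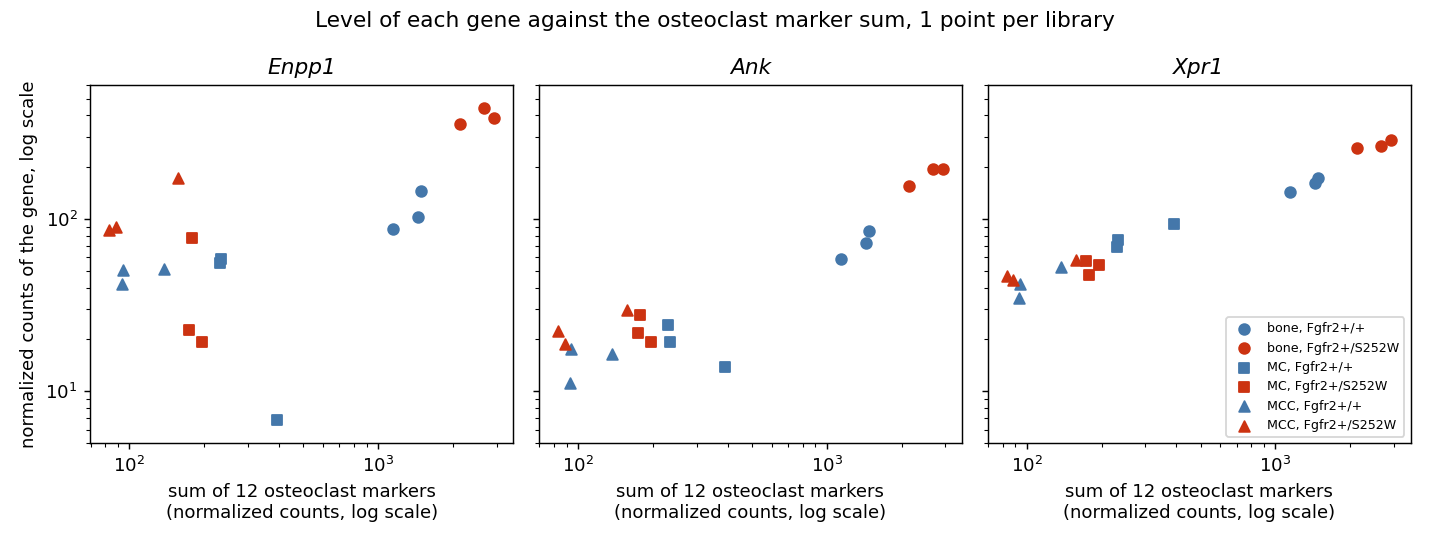
Level of *Enpp1*, *Ank* and *Xpr1* (vertical log axis, normalized counts) against the summed level of 12 osteoclast markers (horizontal log axis, normalized counts), 1 point per library, with tissue by symbol and genotype by color. *Xpr1* points run in 1 band from 34.9 to 289, whereas *Enpp1* in MCC lies between 42.0 and 174 at marker sums of 83.2 to 157.

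*Enpp1* and *Ank* had other neighbors. The genes most like *Enpp1* were *Tpp1* (r = 0.949), which encodes a lysosomal peptidase, *Aff1* (0.926), *Arhgap24* (0.891), *Fam20c* (0.890), which encodes the kinase of secreted mineral-binding proteins, and *Mical3* (0.890). Those most like *Ank* were *Dcn* (0.938), which encodes the matrix proteoglycan decorin, *Hsd17b4* (0.936), *Arsb* (0.935), *Dmxl1* (0.933) and *Hexa* (0.932), of which *Arsb* and *Hexa* encode lysosomal enzymes. *Ank* was 14th in the order for *Enpp1* (r = 0.821), and *Xpr1* was 434th (r = 0.618). In the order for *Ank*, *Xpr1* was 7th (r = 0.930). The correlations across libraries are descriptions without a test.

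Within a group of 3 libraries the 3 genes still deviated together in bone and MCC. After subtraction of the group means, the deviations of *Enpp1* and *Ank* correlated at 0.910 in bone and 0.797 in MCC (n = 6 libraries each), those of *Ank* and *Xpr1* at 0.901 and 0.836, and those of *Enpp1* and *Xpr1* at 0.756 and 0.728. The MCC values include *Fgfr2+/S252W* replicate 3, the highest of its group for all 3 genes, and were not repeated without it. In MC the values were 0.928, -0.939 and -0.931, and they include *Fgfr2+/+* replicate 1, which had the lowest *Enpp1* and *Ank* and the highest *Xpr1* of that tissue. Without that library they were 0.809, -0.841 and -0.790 over 5 libraries. Over all 18 libraries, MC included, the values were 0.768, 0.208 and -0.291. Deviations from a mean of 3 are not independent of each other, and no test was made.

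The levels themselves were also compared within each cartilage, over 6 libraries and 6 relations in all, with two-sided exact permutation tests. In MCC, *Enpp1* and *Ank* had a Pearson r of 0.916 (exact permutation p = 0.0111, adjusted p = 0.0667) and a Spearman rho of 0.886 (exact permutation p = 0.0333, adjusted p = 0.200), and r was 0.786 without the 2 libraries farthest from the median of *Enpp1*. The genotypes did not overlap in either gene there, and within genotypes the correlation was the 0.797 given above. In MC the same pair had r = 0.860 (exact permutation p = 0.0278, adjusted p = 0.0792) and rho = 0.657 (exact permutation p = 0.175), and r was 0.271 without 2 libraries. *Ank* and *Xpr1* had r = -0.799 in MC (exact permutation p = 0.05, adjusted p = 0.0792, rho -0.771) and 0.831 in MCC (exact permutation p = 0.0528, adjusted p = 0.0792, rho 0.657). *Enpp1* and *Xpr1* had r = -0.514 in MC (exact permutation p = 0.303, rho -0.429) and 0.717 in MCC (exact permutation p = 0.100, adjusted p = 0.120, rho 0.771). None of the 6 passed after adjustment, and the last 4 changed sign without 2 libraries, so that they rested on those libraries.

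The genes that act with the 3 in PPi and phosphate handling showed tissue differences, and in the fit of all 6 groups no genotype effect past the threshold. The lists of these genes were drawn up with earlier results known, and the counts leave out *Enpp1*, *Ank* and *Xpr1*. In that fit 0 of the genes tested in the 7 lists passed between genotypes in bone, MC or MCC by limma, where 0.0872% of all genes passed in bone and 0% in MC and MCC, so that a count of 0 says little about these genes. In the limma fit of the bone libraries alone 1 passed, *Mgp*, which encodes matrix Gla protein, an inhibitor of mineralization, as lower in *Fgfr2+/S252W* embryos (log2 fold change -1.22, adjusted p = 0.0187), where 0.536% of genes were called lower. *Alpl* had a genotype log2 fold change of 0.04 in bone (SE 0.59), -0.20 in MC (SE 0.78) and -0.08 in MCC (SE 0.61). *Phospho1*, which encodes the matrix vesicle phosphatase that releases phosphate from phospholipid head groups, had -0.66 in bone (SE 0.37), -1.45 in MC (SE 1.3) and -0.26 in MCC (SE 0.36). *Kidins220*, which encodes a partner of XPR1, had 0.53 in bone (SE 0.14, adjusted p = 0.204), 0.08 in MC and 0.13 in MCC. Without *Fgfr2+/+* MC replicate 1 the value in MC was 1.07 for *Alpl* (adjusted p = 0.582), -0.27 for *Phospho1* (adjusted p = 0.964) and 0.16 for *Kidins220* (adjusted p = 0.752). For the phosphate importers, *Slc20a1* had 0.51 in bone (SE 0.28, adjusted p = 0.678) and *Slc20a2* had 0.05 (SE 0.22).

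The genes of other routes of PPi supply were low or highest outside bone, or differed less between tissues. Of the 4 other genes in the PPi supply list, *Enpp3* and *Abcc6* were below the filter. *Enpp3*, the neighbor of *Enpp1*, had 4.52 to 6.90 normalized counts in the bone libraries and 0 to 2.88 in the cartilages, and *Abcc6*, which encodes a transporter that drives ATP release from liver cells, had at most 5.55. *Panx3*, which encodes an ATP-releasing channel of the osteoblast and chondrocyte lineages, was highest in MCC. Its log2 difference was 5.51 between MCC and MC (SE 0.30, limma adjusted p = 1.31e-11), 3.33 between bone and MC (SE 0.30, adjusted p = 3.78e-08) and -2.18 between bone and MCC (SE 0.24, adjusted p = 1.70e-07). Without *Fgfr2+/+* MC replicate 1 the first pair was 6.10 and 3.90. *Panx1* differed by 1.03 between bone and MCC (adjusted p = 0.0161) and by -1.15 between MCC and MC (adjusted p = 0.0167), and the latter was -0.73 without *Fgfr2+/+* MC replicate 1 (adjusted p = 0.120).

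The genes of hydrolysis were mostly lowest in MC. Of the 6 listed, 4 were higher in bone than in MC and none was lower, with a median log2 difference of 2.34 over the list, against 0.02 over all genes, of which 26.6% were called higher and 24.5% lower. They were *Smpd3* (4.89), *Phospho1* (4.59), *Alpl* (2.70) and *Ppa1* (1.98), and without *Fgfr2+/+* MC replicate 1 again 4 were higher, with *Smpd3* at 6.39 and *Alpl* at 3.34. Between bone and MCC, 2 were higher, *Alpl* (1.06, adjusted p = 0.0442) and *Ppa2* (0.52), and 4 were lower, *Ppa1* (-2.60), *Lhpp* (-2.07), *Smpd3* (-1.35) and *Phospho1* (-0.69), with a median of -1.02 against 0.00261 over all genes, of which 25.2% were called higher and 23.6% lower. By edgeR only *Ppa2* was higher and *Ppa1* and *Lhpp* lower, and the calls of *Alpl* (adjusted p = 0.195), *Smpd3* (adjusted p = 0.0842) and *Phospho1* (adjusted p = 0.149) were lost. Between MCC and MC, 5 of 6 were higher and none lower, against 28.4% and 27.8% of all genes. *Alpl* and *Phospho1* were thus both higher in bone than in MC, as were *Enpp1* and *Ank*, whereas *Panx3* and, by limma only, *Phospho1* were lower in bone than in MCC, where *Enpp1* and *Ank* were higher in bone.

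**Figure D4:**
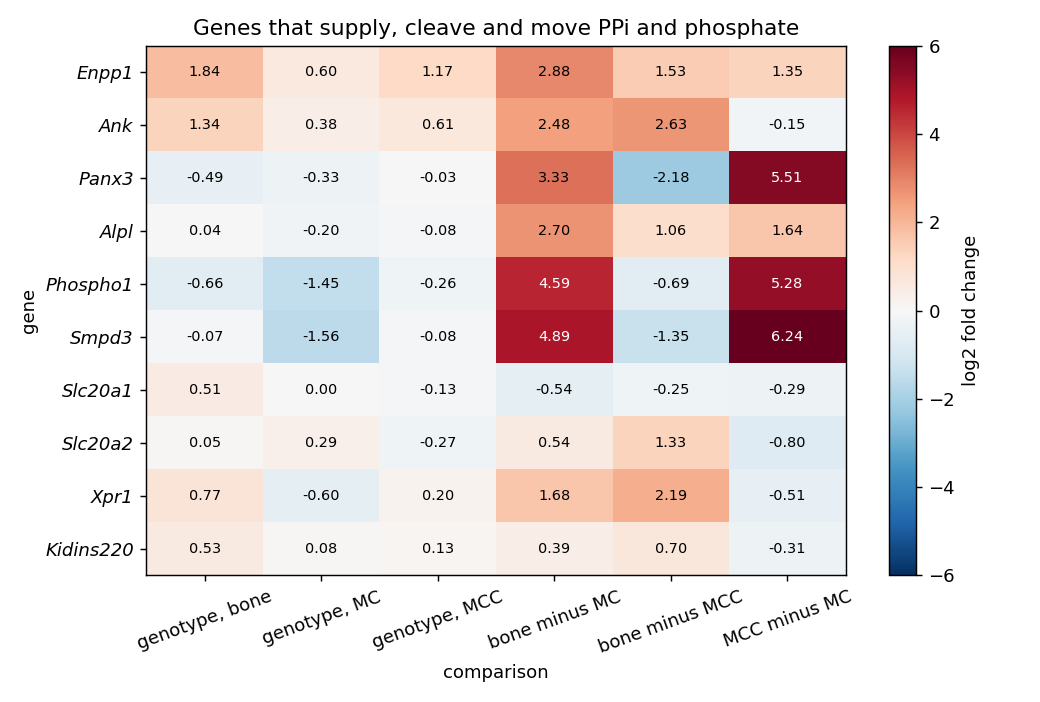
Log2 fold changes of *Enpp1*, *Ank*, *Xpr1* and 7 other genes of PPi and phosphate handling (rows) in 6 comparisons (columns), with the value in each cell and color from blue (lower) to red (higher). *Ank* and *Xpr1* are high in bone against both cartilages (2.48 and 2.63, 1.68 and 2.19), while *Panx3*, *Phospho1* and *Smpd3* have values below 0 between bone and MCC (-2.18, -0.69 and -1.35), of which *Phospho1* and *Smpd3* were called by limma but not by edgeR.

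Phosphate transport showed smaller differences. *Slc20a1*, of the importer family, was lower in bone than in MC by 0.54 on the log2 scale (adjusted p = 0.0471), a call lost without *Fgfr2+/+* MC replicate 1 (difference -0.25, adjusted p = 0.325), and differed by -0.25 between bone and MCC (adjusted p = 0.331). *Slc20a2* was higher in bone than in MC by 0.54 (adjusted p = 0.0214), or by 0.81 without that MC library (adjusted p = 0.000488), and than in MCC by 1.33 (SE 0.18, adjusted p = 4.11e-06). The type II importers *Slc34a1*, *Slc34a2* and *Slc34a3* were below the filter. Among genes of inositol pyrophosphate metabolism, *Nudt4*, which encodes a hydrolase of these signaling molecules, was higher in bone by 1.14 against MC and 2.31 against MCC, and *Kidins220* by 0.39 and 0.70 (adjusted p = 0.00428 and 9.88e-06). Of the 6 genes tested in this list, 2 were higher and 1, *Ip6k2*, lower in bone than in MC, and 2 were higher in bone than in MCC, shares near those of all genes (26.6%, 24.5% and 25.2%).

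In the rest of the ENPP family 3 of 6 genes were tested, of which 1 was higher and 1 lower in bone than in MC, and 2 were higher and 1 lower in bone than in MCC. Of all genes 26.6% were higher and 24.5% lower in the first comparison and 25.2% and 23.6% in the second. *Enpp6*, which encodes a choline-specific phosphodiesterase, was higher in bone than in MC by 7.60 and than in MCC by 3.79. *Enpp2*, which encodes autotaxin, was highest in MCC, with -0.97 between bone and MC and -2.94 between bone and MCC. *Enpp5* was higher in bone than in MCC by 1.75 and differed by -1.27 between MCC and MC (adjusted p = 0.00275). Without *Fgfr2+/+* MC replicate 1 the difference between bone and MC was 7.19 for *Enpp6* and -0.73 for *Enpp2*.

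Of the 14 nucleotide and adenosine genes 8 were below the filter. Of the 6 tested, 1 was lower and none higher in bone than in MC, where without *Fgfr2+/+* MC replicate 1 the counts were 2 lower and 2 higher. With all libraries 24.5% of all genes were lower and 26.6% higher in that comparison. *Nt5e*, which converts the AMP left by ENPP1 to adenosine, was lower in bone than in MC by 1.25, or by 1.58 without that library, and than in MCC by 3.70. Between bone and MCC *P2rx4*, an ATP-gated channel, had -1.02 and *Entpd5* -0.47, while *Entpd3*, a nucleotide hydrolase, had 1.35 and *Ada*, adenosine deaminase, 0.97 (adjusted p = 0.0459, and 0.0887 by edgeR). The called share was thus 3 of 6 lower and 2 of 6 higher, against 23.6% and 25.2% of all genes.

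Of the mineral-binding and phosphate hormone genes, 5 of 11 were tested, with *Spp1*, *Ibsp*, *Dmp1* and *Phex* higher and *Mgp* lower in bone than in MC, against 26.6% and 24.5% of all genes. Between bone and MCC *Spp1* (3.58), *Dmp1* (3.35) and *Phex* (2.17) were higher and *Mgp* (-3.01) lower, and *Ibsp* had 0.46 (adjusted p = 0.410). *Spp1* encodes osteopontin and *Dmp1* a mineral-binding protein of osteocytes, and the median difference between bone and MC over the 5 was 7.67, or 7.31 without *Fgfr2+/+* MC replicate 1, against 0.02 over all genes. In bone the genotype log2 fold change was 0.63 for *Spp1* (SE 0.55), 1.13 for *Dmp1* (SE 0.33, adjusted p = 0.286) and -1.21 for *Mgp* (SE 0.55, adjusted p = 0.601 with all 6 groups, against 0.0187 in bone libraries alone). *Mgp* had 20.6, 20.3 and 13.6 normalized counts in *Fgfr2+/+* and 8.80, 7.49 and 6.74 in *Fgfr2+/S252W* bone, without overlap.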

How the data were processed

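RNA from laser-captured mandibular bone, MC and MCC was amplified with the NuGEN Ovation RNA-Seq System v2, made into libraries with Nextera XT and sequenced from both ends. The authors used STAR for alignment to mm10 and featureCounts 1.5.0-p1 to obtain the fragment count of each gene over the exons of an Ensembl annotation of GRCm38 from which nonsense-mediated decay transcripts had been removed, ignoring strand, and deposited these counts without normalization. Whether PCR duplicates were removed is not given in the sources used here.

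Groups, replicates and tissues came from the sample labels. The filter kept 11469 genes whose FPKM exceeded 1 in 50% or more of 18 libraries, TMM factors and voom were applied, and limma 3.58.1 (R 4.3.3) fitted 1 mean for each of the 6 groups, with eBayes (12 residual and 8.12 prior degrees of freedom) and Benjamini-Hochberg adjustment over all genes of a comparison at 0.05, two-sided. The steps, with all sample groups in 1 fit, follow the paper, whose text describes captured bone and MC. The MCC libraries were added to the filter and the fit here. The paper reports many more genes differing between the genotypes in bone than the 10 called by this fit. Among those of the paper are the osteoclast genes *Acp5*, *Csf1r*, *Ctsk* and *Itgb3*, which did not pass in this fit. In the limma fit of the bone libraries alone 141 genes were called, with those osteoclast genes among them. Alternatives were edgeR 4.0.16, DESeq2 1.42.0, fits of the compared tissues alone, other filters, factors and weights, blocks and leaving out 1 library at a time. Libraries of different tissues with the same code were taken to come from the same embryo. Their deviations from the group means correlated at -0.0863 to 0.105, and the embryo as a block changed no call of the 3 genes. The fits were tested on simulated counts. The fits without *Fgfr2+/+* MC replicate 1 for gene lists and within genotypes were chosen after seeing the data.

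The 3 genes, the gene lists and the markers were chosen with earlier results of these data known. The genes named were the 3, *Fgfr2*, *Alpl*, *Phospho1*, *Slc20a1*, *Slc20a2*, *Enpp3*, *Abcc6*, *Panx3* and *Kidins220*, up to 4 further genes per list and comparison with the smallest adjusted p past the threshold, the 5 genes most like each of the 3, and overlapping or neighboring genes. Marker genes, *Gm42418*, *Ada* and the genotype values of *Spp1*, *Dmp1* and *Mgp* in bone were named beside results after their values were seen. The 7 neural markers summed to 0.191 to 14.5 and the 5 endothelial markers to 5.36 to 256.6 normalized counts over all libraries. Depth of 8218548 to 15585778 fragments leaves levels of a few fragments imprecise.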

Additional observations from a re-analysis of the deposited data

Results flagged for a closer look

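For *Xpr1* the genotype effect differed between bone and MC by 1.37 on the log2 scale, because in bone all 3 *Fgfr2+/S252W* libraries lay above all 3 *Fgfr2+/+* libraries and in MC all 3 lay below. The bone values chose the gene, so the difference was not tested. Without *Fgfr2+/+* MC replicate 1 the MC libraries still did not overlap, at 47.6 to 57.4 against 68.5 and 75.9 normalized counts.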

How the results depend on the processing

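Over 360 alternative values of the tested effects of the 3 genes, 354 kept their direction and their side of the threshold, 4 reversed and 2 lost the call. The 4 reversals were all of the *Enpp1* genotype effect in MC (0.60), which was -0.00264 by DESeq2, -0.23 with sample quality weights and -0.70 to 1.15 with 1 library left out. The 2 lost calls were *Enpp1* between MCC and MC (1.35), with 0.904 by edgeR and 0.903 by DESeq2. The correlations that changed sign without 2 libraries became 0.971 (*Enpp1* and *Xpr1*) and 0.0850 (*Ank* and *Xpr1*) in MC, and -0.172 and -0.197 in MCC. Fewer points remain there, and the cause was not tested for the other changes. The number of genes called between genotypes in bone, 10, was 4 by edgeR, 17 by DESeq2, 141 in bone libraries alone, 21 with filterByExpr, 53 without a filter, 589 with sample quality weights and 0 to 91 with 1 library left out, the highest without *Fgfr2+/+* replicate 3 and the lowest without replicate 1. In MC, 0 became 90 by edgeR, 423 by DESeq2, 45 without a filter, 1 with the embryo as a random block and 0 to 138 with 1 library left out, the highest without *Fgfr2+/+* replicate 2 and 42 without replicate 3. In MCC, 0 became 3 by DESeq2 and 2 with sample quality weights, and the difference of effects between MCC and MC gave 93 by DESeq2. Without a filter the tissue counts were 13153 (bone against MC, 5853 with it), 9369 (bone against MCC, 5603) and 11356 (MCC against MC, 6449).

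Whether same-numbered libraries of the genotypes share more than a number cannot be told from the correlation of their deviations. It was -0.121, 0.203 and 0.122 in bone, -0.152 to -0.0512 in MC and 0.0355 to 0.277 in MCC. Libraries taken to be of 1 embryo gave only -0.0863 to 0.105, so a low value cannot exclude a shared source. The replicate block gave 7 genes in bone, 0 in MC and 0 in MCC, a genotype effect of *Enpp1* of 1.84 in bone, 0.31 in MC and 1.21 in MCC, and changed no call of the 3 genes. The MC levels rest on 73 to 580 fragments for *Enpp1* and 86 to 207 for *Ank* per library, and 3 embryos per genotype limit what the cartilage comparisons can show.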
